A study of Mus musculus with 8 samples.

Results

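The genes described here handle fatty acids and cholesterol: they take up fatty acids, store them as triglyceride, burn them in mitochondria, make fatty acids and cholesterol, or carry cholesterol out of the cell, and they include the PPAR receptors. They were given as a list of 43 gene symbols, and 39 of them had a probe set with their symbol alone among the 22180 genes tested. Acsl1 and Nr1h2 had no such probe set, Acsl3 and Scd2 lay on probe sets listed with a further gene, and these 4 were not analysed here. Each gene was read from its probe set with the highest mean over all 8 arrays.

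RNA came from B-1a cells, the CD5-bearing B cells of the body cavities, sorted from peritoneal lavage of 5-week-old mice and measured on arrays. KO denotes CD19cre/+PTIPflox/flox mice, in which Cre made in B lineage cells acts on the floxed Paxip1 gene, and control denotes CD19cre/+PTIP+/+ mice, labelled WT, so that every mouse carried the Cre allele. Paxip1 encodes PTIP, a subunit of the MLL3 and MLL4 histone methyltransferase complexes. The 29 KO and 22 control mice were pooled into 4 samples per genotype, each on 1 array; how many went into each pool is not given in the sources used. The SD of 4 pools is a spread between pools rather than between mice. Paxip1 was 6.36-fold lower in KO (4.38 ± 0.54 against 7.05 ± 0.13, log2, SD, n = 4). The B cell receptor chain Cd79b, at 11.80 to 11.93, and Cd5, at 7.26 to 7.71, were measured at similar values in all 8 pools. Of the 10 B-1a markers 5 were called lower in KO and 0 higher. The 5 were Itgam (-1.68), Fcrl5 (-1.39), Zbtb32 (-1.11), Cd9 (-0.60) and Ahnak (-0.38). Of the 10 differences 8 were negative and 2 positive. Ctla4 went the other way, with all KO pools above all control pools but no call (0.55, adjusted p in limma = 0.108). Bhlhe41 was nearly flat (-0.02). The summed linear level of the 10 was 2001 to 2157 in KO and 2891 to 3048 in control. T cell markers differed between pools: the summed linear level of the 14 measured was 413 to 2569 in KO and 261 to 577 in control. All 14 differences were positive, limma called 0 of them (10 at an unadjusted p under 0.05), and KO pools 1 and 2 were highest. Of all genes tested 15.3% had an unadjusted p under 0.05 in limma, and 3.59% were called (1.49% higher, 2.1% lower). These are the shares to set beside each such count. Of the NK cell markers 2 of 11 were called higher. All 11 differences were positive, 8 of them at an unadjusted p under 0.05. Their summed level was 652 to 3054 in KO and 221 to 788 in control, again highest in KO pools 1 and 2. Of the pan-B markers 1 of 9 (Cd22) was called lower, and of the mesothelial markers 2 of 8 (Krt8, Krt18). The 6 mesothelial markers not called were dim, below the array medians, and Lrrn4 among them was separate upward (0.28). For dendritic cell markers 0 of 7 and for mast cell and granulocyte markers 0 of 8 were called (3 and 0 at an unadjusted p under 0.05). These markers had no value of 0, as no gene does on this scale, and fewer cells of a type cannot be told apart from less RNA per cell in such bulk samples. Values without KO pools 1 and 2, and adjusted for mean T cell or mean macrophage marker signal, are given beside the genes whose call they change; markers of the remaining cell types were not used for adjustment.

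Cells import long-chain fatty acids through CD36, trap them as acyl-CoA, and either store them in lipid droplets through DGAT enzymes or pass them through the carnitine shuttle, where CPT1 sets the pace, into mitochondrial oxidation. Sterol supply is balanced by SREBP2, which drives cholesterol synthesis when membranes are poor in cholesterol, and by the LXR receptors, which drive export through ABCA1 and ABCG1 when sterols are plentiful. Peritoneal B-1a cells are known for taking up fatty acids and for holding lipid droplets.

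Bases before the gene starts are shown for 5 genes. Cd36, Cpt1a and Abca1 had the largest differences among the 39 to pass the test. Cyp51 is the cholesterol synthesis gene that passed it, and Hmgcs1, which makes HMG-CoA in the same pathway, did not. Each run is the 250 bases upstream of the RefSeq start in assembly GRCm38.p6, 5′ to 3′ on the gene's strand, with matches to the motifs named below in capitals, except GC boxes, which are not marked.
Cd36 (chr5:17835897-17836146, minus strand): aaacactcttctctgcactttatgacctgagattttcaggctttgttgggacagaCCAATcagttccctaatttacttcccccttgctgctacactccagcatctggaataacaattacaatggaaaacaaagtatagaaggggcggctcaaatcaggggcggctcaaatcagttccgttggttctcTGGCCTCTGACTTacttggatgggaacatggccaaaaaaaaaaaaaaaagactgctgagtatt
Cpt1a (chr19:3323051-3323300, plus strand): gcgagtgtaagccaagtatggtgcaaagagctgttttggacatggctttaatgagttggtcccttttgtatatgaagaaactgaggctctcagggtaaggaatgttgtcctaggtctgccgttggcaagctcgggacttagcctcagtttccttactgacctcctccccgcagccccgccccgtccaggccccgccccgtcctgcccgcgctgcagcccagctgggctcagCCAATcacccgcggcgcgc
Abca1 (chr4:53159896-53160145, minus strand): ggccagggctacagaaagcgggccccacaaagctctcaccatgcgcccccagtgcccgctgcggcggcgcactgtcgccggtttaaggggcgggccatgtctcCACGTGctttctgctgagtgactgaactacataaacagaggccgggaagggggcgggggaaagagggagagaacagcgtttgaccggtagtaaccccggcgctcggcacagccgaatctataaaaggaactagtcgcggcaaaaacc
Hmgcs1 (chr13:119690101-119690350, plus strand): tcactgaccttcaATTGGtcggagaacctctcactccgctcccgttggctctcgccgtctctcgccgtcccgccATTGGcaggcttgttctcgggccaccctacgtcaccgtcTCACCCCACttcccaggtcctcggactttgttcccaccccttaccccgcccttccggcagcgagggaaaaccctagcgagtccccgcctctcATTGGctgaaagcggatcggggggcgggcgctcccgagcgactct
Cyp51 (chr5:4104698-4104947, minus strand): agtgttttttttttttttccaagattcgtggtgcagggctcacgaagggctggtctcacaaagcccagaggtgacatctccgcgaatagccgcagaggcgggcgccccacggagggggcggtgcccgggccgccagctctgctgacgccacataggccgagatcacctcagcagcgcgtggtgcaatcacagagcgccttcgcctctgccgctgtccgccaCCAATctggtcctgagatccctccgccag

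The capitals mark a CCAAT box (CCAAT) in Cd36, Cpt1a, Hmgcs1 and Cyp51, on either strand. In Cd36 they also mark a direct repeat of the PPAR type (DR1, a pair of AGGTCA half-sites 1 base apart with up to 2 mismatches), 63 to 51 bases before the start, in Abca1 an E-box (CACGTG), and in Hmgcs1 a sterol regulatory element (TCACNCCAC). Among all 32851 promoter windows of this length, a CCAAT box was found in 33.8%, a DR1 in 3.24%, an E-box in 6.02% and the sterol element in 1.05%, on both strands. The LXR type repeat (DR4, the same half-sites 4 bases apart with up to 2 mismatches) was in 2.57% of windows, and in 0 of the 10 windows of 9 called lipid genes. Repeats with more mismatches were not counted. The Abca1 window holds 1 on the other strand (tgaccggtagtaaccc, not marked), so the count of 0 does not show that LXR type repeats are absent. The GC box (GGGCGG) was in 32.7% of all windows and in 9 of those 10. It was also common in these lists whatever the call. It was in 22 of 40 windows of the listed genes, 19 of 25 of cholesterol synthesis genes and 18 of 26 of oxidation genes. Of the 25 windows of 19 cholesterol synthesis genes, 16 held a CCAAT box and 1 the sterol element. For all motifs but DR1 and DR4, 0 mismatches were allowed, so near matches to the sterol element were not counted. The Cyp51 window holds such a near match (tcacctcag, not marked), and the count does not show which genes lack a sterol site. These matches describe letters in 1 short window and are not binding data.

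Of the 39 genes, 4 rose and 2 fell in KO (limma, adjusted p under 0.05 over all 22180 genes, referred to as called). The rises were in fatty acid uptake (Cd36), mitochondrial oxidation (Cpt1a, Acadl) and lipolysis (Pnpla2), and the falls were in triglyceride synthesis (Dgat1) and cholesterol export (Abca1). The 6 make up 15.4% of the 39, where 3.59% of all genes tested were called, 1.49% upward and 2.1% downward. The list was drawn up with results of these arrays known, so that share is a description without a test. All 4 KO pools lay above or below all 4 control pools for 10 of the 39 genes (25.6%, beside 10.5% of all genes), above for 6 (5.41% of all genes) and below for 4 (5.09% of all genes). The median difference of the 39 was 0.05 on the log2 scale and that of all genes 0.02. The count of 6 became 3 on leaving out KO pool 1 or 2, or control pool 2, 3 or 4, and without KO pools 1 and 2 together it was 2 (Cd36 and Cpt1a). Without control pool 1 it stayed at 6, but only 4 of these were the same genes, and likewise when adjusted for mean macrophage marker signal.

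**Figure D1:**
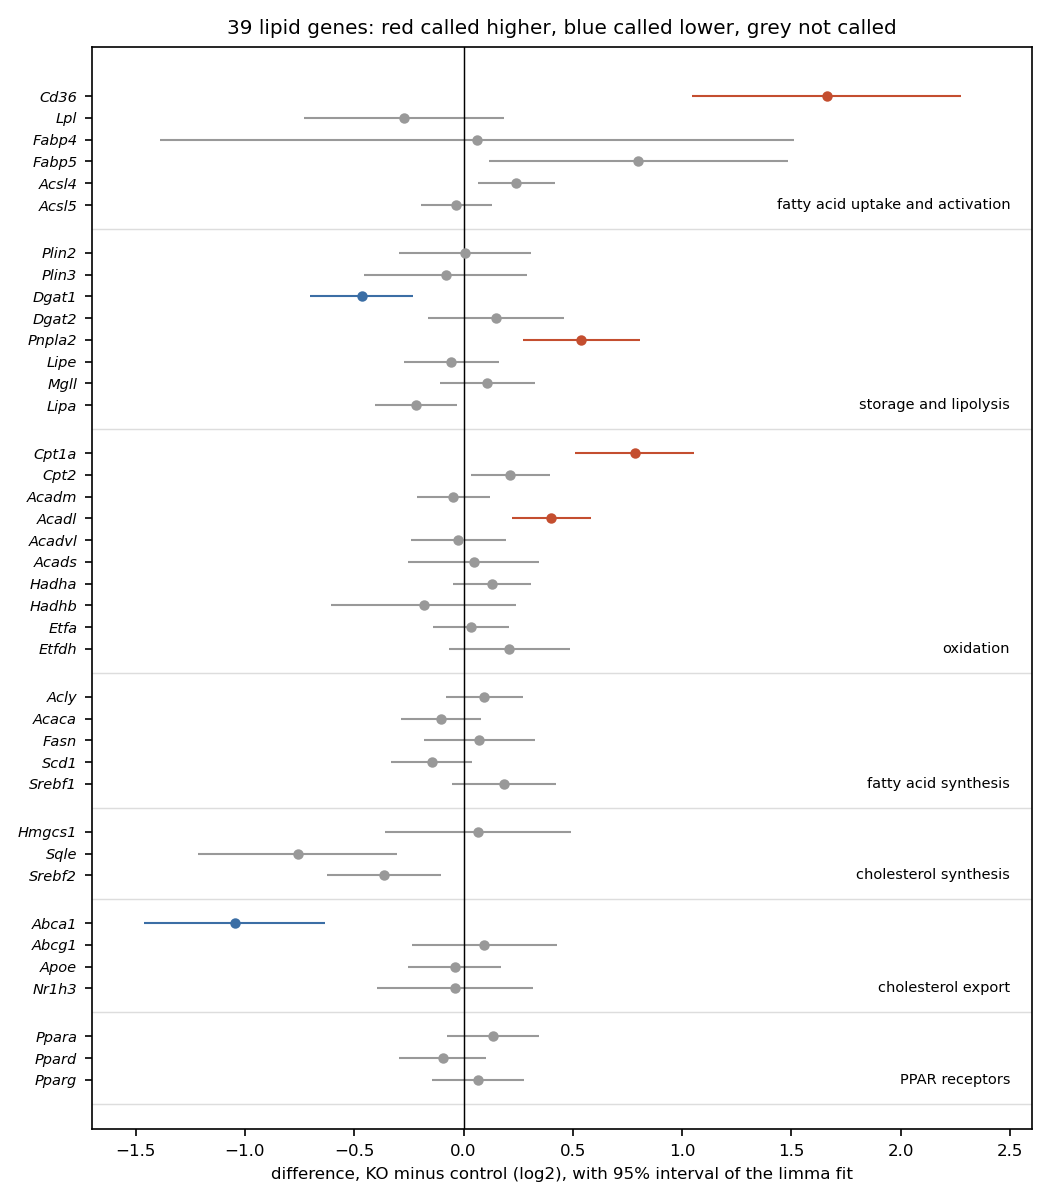
Difference between KO and control (log2, x axis) for each of the 39 genes (y axis), grouped by role, with the 95% interval of the limma fit (4 pools against 4); red was called higher, blue lower and grey not called. Cd36, Cpt1a, Acadl and Pnpla2 are red and Dgat1 and Abca1 blue, while Fabp4 has the widest interval, from -1.39 to 1.51.

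Cd36, the scavenger receptor that moves long-chain fatty acids across the plasma membrane, had the largest difference of the 39. On the log2 scale, and in the order of the pool numbers used throughout, the KO pools read 7.21, 7.27, 7.26 and 8.02, the control pools 6.41, 4.95, 5.71 and 6.06. All KO pools were above all control pools, 3 of them close together and the other higher, while the control pools were spread out. KO exceeded control by 1.66 on the log2 scale (SE 0.28, adjusted p in limma = 0.00797), or 3.16-fold. It was 1.86 without KO pools 1 and 2 (adjusted p = 0.0470) and 1.90 when adjusted for mean T cell marker signal (0.0341). The within-group SD of Cd36 was at the 99.4th percentile of all genes. Its call was lost in the fit without moderation of the variance (adjusted p = 0.113). Platelets, macrophages and adipocytes also make Cd36. None of the 7 platelet, 7 adipocyte or 3 erythroid markers measured was called (2, 0 and 0 at an unadjusted p under 0.05), and the summed level of the 15 macrophage markers was 947 to 1043 in KO and 903 to 1941 in control. By exact permutation, two-sided, of the array labels (70 ways), p was 0.0286 for Cd36, the smallest 4 against 4 allows, as for the other 9 separated genes.

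The other uptake genes did not pass the test. For Fabp5, a cytosolic fatty acid binding protein, the KO pools read 5.94, 6.39, 5.41 and 6.40, the control pools 5.90, 4.70, 5.73 and 4.60. The groups overlapped, control pools 1 and 3 lying between the lower KO pools, and the difference of 0.80 (SE 0.31) had an adjusted p of 0.240. Adjusted for mean macrophage marker signal it was 1.04 and called (0.0481). A further Fabp5 probe set of similar level differed by 0.82, and 2 dim ones by 0.22 and 0.28. For Acsl4, which couples arachidonate and other polyunsaturated fatty acids to coenzyme A, the KO pools read 6.50, 6.49, 6.63 and 6.41, the control pools 6.30, 6.31, 6.20 and 6.26. These groups were separate, but the difference of 0.24 (SE 0.08) had an adjusted p of 0.157. Acsl5, another acyl-CoA synthetase, was nearly flat, from 7.92 to 8.07 over all pools. Lpl, which frees fatty acids from lipoproteins, was dim: the KO pools read 3.16, 2.86, 2.53 and 2.80, the control pools 3.71, 2.74, 3.23 and 2.74. It was highest in control pool 1, overlapped between groups and differed by -0.27 (SE 0.21).

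Fabp4, a fatty acid binding protein of adipocytes and macrophages, varied more between pools of a genotype than all but a few genes on the array (99.98th percentile of the within-group SD). Here the KO pools read 5.47, 4.61, 4.63 and 4.27, the control pools 7.12, 3.89, 4.49 and 3.23. Control pool 1 stood above every other pool, and the difference of 0.06 (SE 0.66) left an interval from -1.39 to 1.51. In control pool 1 the macrophage enzyme Lyz2 was also highest, at 10.14 against 8.10 to 9.30 in the other control pools. So were the peritoneal macrophage receptor Timd4, at 5.26 against 3.84 to 4.18, and the mast cell protease Cpa3, at 6.999 against 3.75 to 4.14. The adipocyte hormone Adipoq was at 2.96 to 3.27 in all 8 pools. Without control pool 1 Fabp4 differed by 0.87, still not called. Whether other cells in that pool account for its Fabp4 was not tested.

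**Figure D2:**
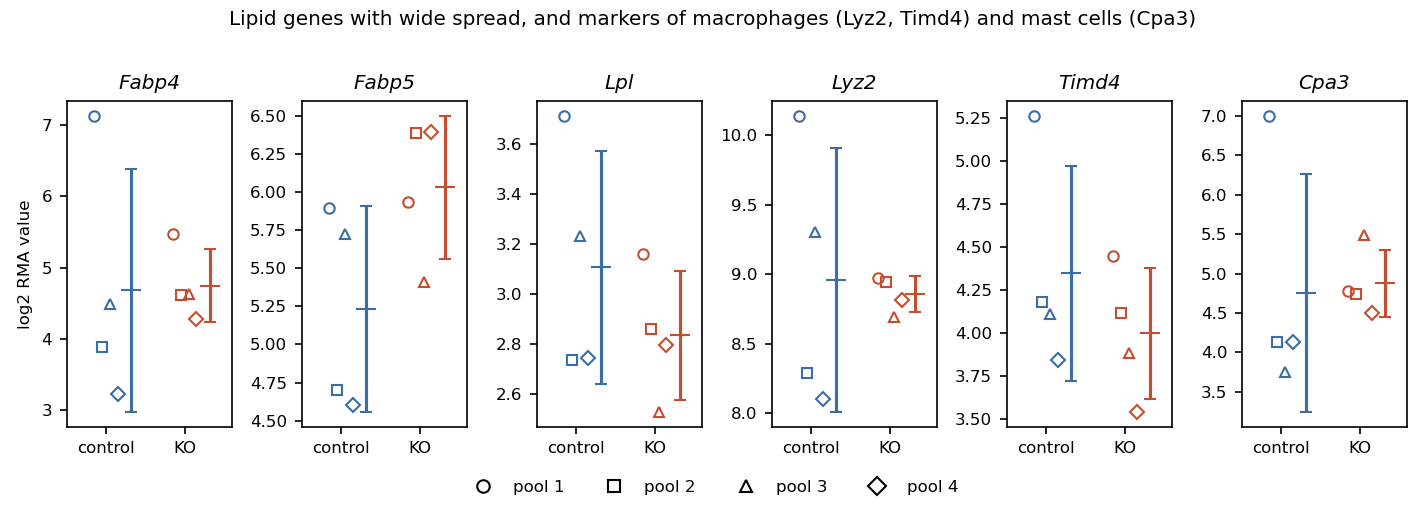
Log2 RMA values (y axis, scale set per gene) of Fabp4, Fabp5 and Lpl and of 2 macrophage markers and a mast cell marker in control and KO pools; symbols are pools, bars the mean ± SD of 4. Control pool 1 is the highest control pool in all 6 panels, at 7.12 for Fabp4 and 6.999 for Cpa3.

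Of the 8 storage and lipolysis genes 1 rose and 1 fell. For Pnpla2, the lipase that takes the first fatty acid off stored triglyceride, the KO pools read 7.57, 7.67, 7.51 and 7.23, the control pools 6.67, 7.11, 6.99 and 7.05. Every KO pool was above every control pool, with KO pool 4 nearest. It was 1.45-fold higher in KO (0.54, SE 0.12, limma, adjusted p = 0.0361). For Dgat1, which adds the last acyl chain in triglyceride synthesis, the KO pools read 6.33, 6.27, 6.28 and 5.89, the control pools 6.78, 6.58, 6.65 and 6.62. The KO pools were all lower, KO pool 4 most, and the fall was 1.38-fold (-0.47, SE 0.11, adjusted p = 0.0378). Both adjusted p were close to the threshold: Pnpla2 was no longer called on leaving out any single pool except KO pool 4 (adjusted p 0.0501 to 0.103), nor Dgat1 on leaving out any single pool (0.0506 to 0.0988). Without KO pools 1 and 2 they differed by 0.41 and -0.57, neither called (0.263 and 0.0809). Both calls were also lost on adjusting for mean T cell marker signal (0.46 and -0.56, adjusted p 0.249 and 0.0966) and for mean macrophage marker signal (0.49 and -0.42, adjusted p 0.0715 and 0.0747).

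The remaining storage genes gave differences from -0.22 to 0.15, none called. For Dgat2, the other enzyme of that last step, the KO pools read 3.49, 3.50, 3.60 and 4.00, the control pools 3.17, 3.56, 3.62 and 3.66. The pools were dim and overlapped, with a difference of 0.15 (SE 0.14). The lipid droplet coats Plin2 and Plin3 differed by 0.01 and -0.08, with intervals from -0.29 to 0.31 and from -0.45 to 0.29. Lipe, which cleaves diglyceride after Pnpla2, differed by -0.06. For Mgll, which cleaves monoglyceride, the KO pools read 3.41, 3.45, 3.09 and 3.36, the control pools 3.30, 3.25, 3.09 and 3.23. These overlapped, with a difference of 0.11 (SE 0.10). For Lipa, the acid lipase of lysosomes, the KO pools read 7.95, 7.94, 7.78 and 7.94, the control pools 8.17, 8.02, 8.24 and 8.05. Its groups did not overlap, but the difference was small (-0.22, SE 0.09, adjusted p = 0.244). Of 21 other storage genes measured, such as Plin5, Hilpda and Gpam, limma called 0 (3 at an unadjusted p under 0.05, beside 15.3% of all genes).

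Among the 10 oxidation genes 2 rose and 0 fell, and the list's median difference was 0.09. For Cpt1a, which attaches fatty acids to carnitine for entry into mitochondria, the KO pools read 7.22, 6.97, 7.23 and 7.34, the control pools 6.59, 6.09, 6.40 and 6.55. The groups did not overlap, and pool 2 was the lowest of each. Cpt1a was 1.72-fold higher (0.78, SE 0.12, limma, adjusted p = 0.00547) and stayed called without KO pools 1 and 2 (0.88, adjusted p = 0.0285). For Acadl, a dehydrogenase of long-chain acyl-CoA, the KO pools read 8.38, 8.31, 8.17 and 8.19, the control pools 7.92, 7.86, 7.78 and 7.90. The pools of each genotype were tight and separate, and the rise was 1.32-fold (0.40, SE 0.08, adjusted p = 0.0231). Its KO values were highest in pools 1 and 2, the pools with most T cell marker signal. Without both, the difference was 0.32 (adjusted p = 0.199), and adjusted for mean T cell marker signal it was 0.30 (0.234). Acadl was also not called when KO pool 1 or 2 alone, or control pool 2, 3 or 4, was left out (0.0556 to 0.0733).

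The rest of the oxidation path did not pass the test. For Cpt2, which returns the acyl chain to coenzyme A inside mitochondria, the KO pools read 6.58, 6.70, 6.62 and 6.59, the control pools 6.54, 6.42, 6.39 and 6.28. The groups were separate, though by little, with a difference of 0.21 (SE 0.08, adjusted p in limma = 0.236). The dehydrogenases of other chain lengths, Acadvl, Acadm and Acads, differed by -0.02, -0.05 and 0.05, and their intervals lay between -0.25 and 0.35. Hadha and Hadhb are the subunits of the trifunctional protein, and Hadha differed by 0.13. For Hadhb, the KO pools read 4.06, 3.19, 3.96 and 3.64, the control pools 4.14, 3.92, 4.03 and 3.49. These overlapped widely, with a difference of -0.18 (SE 0.19). Etfa and Etfdh pass the electrons to the respiratory chain, and Etfa differed by 0.04. For Etfdh, the KO pools read 7.51, 7.46, 7.56 and 7.83, the control pools 7.71, 7.37, 7.22 and 7.23. Control pool 1 lay within the KO range, and the difference was 0.21 (SE 0.13). Of 22 other oxidation genes measured limma called 0 (6 at an unadjusted p under 0.05, beside 15.3% of all genes). Over both lists 2 of 32, or 6.25%, were called, beside 3.59% of all genes.

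**Figure D3:**
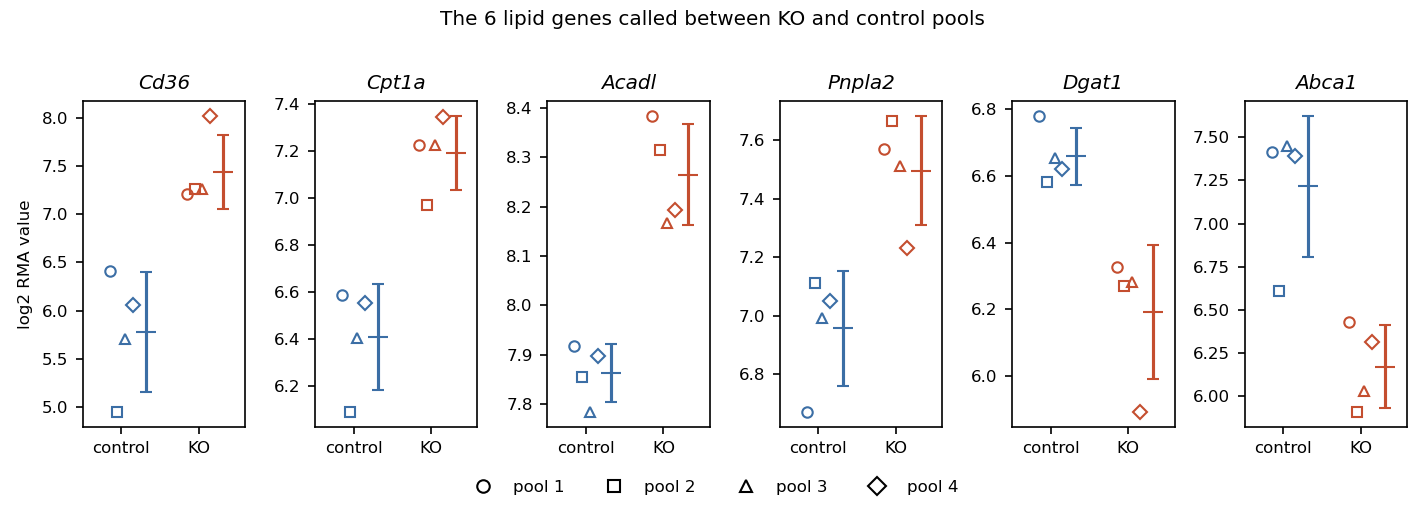
Log2 RMA values (y axis, scale set per gene) of the 6 called genes in control (blue) and KO (red) pools; symbols are pools, bars the mean ± SD of 4. No KO pool overlaps a control pool in any panel, and control pool 2 stands apart from the other control pools in Abca1, at 6.61.

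None of the 5 fatty acid synthesis genes was called (0 at an unadjusted p under 0.05). Acly, which makes cytosolic acetyl-CoA, and Fasn, which builds palmitate, differed by 0.10 and 0.07. For Acaca, which makes malonyl-CoA, the KO pools read 5.30, 5.19, 5.26 and 5.21, the control pools 5.29, 5.34, 5.25 and 5.50. The groups overlapped, with a difference of -0.10 (SE 0.08). For Scd1, the desaturase that makes oleate, the KO pools read 10.05, 9.99, 9.94 and 9.95, the control pools 10.01, 10.28, 10.14 and 10.08. Only control pool 1 overlapped the KO pools, and the difference was -0.15 (SE 0.08, adjusted p in limma = 0.463). For Srebf1, whose protein SREBP1 drives this pathway, the KO pools read 5.58, 5.36, 5.54 and 5.50, the control pools 5.04, 5.46, 5.46 and 5.28. Control pools 1 and 4 were below every KO pool and control pools 2 and 3 within the KO range, with a difference of 0.19 (SE 0.11). The 5 intervals lay between -0.33 and 0.42. Of 21 other genes of fatty acid synthesis limma called 0 as well (1 at an unadjusted p under 0.05).

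In cholesterol synthesis the 3 listed genes were not called (2 at an unadjusted p under 0.05, Sqle and Srebf2). For Sqle, the squalene epoxidase, the KO pools read 5.10, 4.50, 5.10 and 5.13, the control pools 5.22, 6.26, 5.78 and 5.60. The KO pools were all lower, but KO pools 1, 3 and 4 came close to control pool 1. By limma KO differed by -0.76 (SE 0.21, adjusted p = 0.0787), and on leaving out control pool 1 by -0.92, which was called (0.0356), as it was when adjusted for mean macrophage marker signal (-0.88, 0.0420). For Srebf2, which encodes SREBP2, the KO pools read 8.06, 7.86, 7.97 and 7.86, the control pools 7.97, 8.51, 8.30 and 8.42. Control pool 1 lay within the KO range and the other control pools above it, giving -0.36 (SE 0.12, adjusted p = 0.146) with it and -0.47 (0.0318) without it. Hmgcs1 makes HMG-CoA, and its window above holds an exact match to the sterol element. For Hmgcs1 the KO pools read 6.80, 6.28, 6.42 and 5.98, the control pools 5.95, 6.78, 6.30 and 6.17. The groups overlapped throughout, with a difference of 0.07 (SE 0.19).

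Of 20 other cholesterol synthesis genes measured, 1 fell and 0 rose. For Cyp51, the lanosterol demethylase, the KO pools read 4.98, 5.28, 4.98 and 4.98, the control pools 5.75, 6.32, 5.75 and 5.77. Within each genotype 3 pools were nearly identical and pool 2 was higher, and the groups did not overlap. The fall was 1.79-fold (-0.84, SE 0.14, limma, adjusted p = 0.00651), and it kept its call in every one of its 20 alternatives but the fit without moderation of the variance (0.0786). Tm7sf2, a sterol reductase (-0.35, adjusted p = 0.0553), and Insig1, which holds SREBP in the endoplasmic reticulum (-0.28, 0.163), were also below all control pools without a call. Further steps, named after their values were seen, ranged in both directions without a call: Lss differed by -0.31, Mvd by -0.27, Fdft1 by -0.11, Msmo1 by -0.07, Fdps by -0.04, Nsdhl by 0.03 and Sc5d by 0.22. Over the 23 genes of both lists the median difference was -0.04 and 13 were negative.

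Control pools differed from each other in this pathway. Control pool 2 was the highest control pool for 17 of the 23 cholesterol synthesis genes (73.9%), where it was highest for 24.5% of all genes, and control pool 1 was the lowest for 16 (69.6%, beside 27.9% of all genes). The median deviation from the control mean over the 23 genes was 0.23 in pool 2 and -0.15 in pool 1. Abca1 and Abcg1 were lower in control pool 2, at 6.61 and 5.36, than in the other control pools. It was the lowest control pool for 3 of the 4 listed export genes, Apoe being the exception. The 22 other export and transport genes did not share this: control pool 2 was lowest for 3 (13.6%, beside 25.7% of all genes) and highest for 5 (22.7%). For the 23 synthesis genes no KO pool stood out in the same manner, the highest share being 30.4%, in KO pools 2 and 4. Fdps, for example, was 6.83 in control pool 2 and 5.80 to 5.88 in the other 3.

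**Figure D4:**
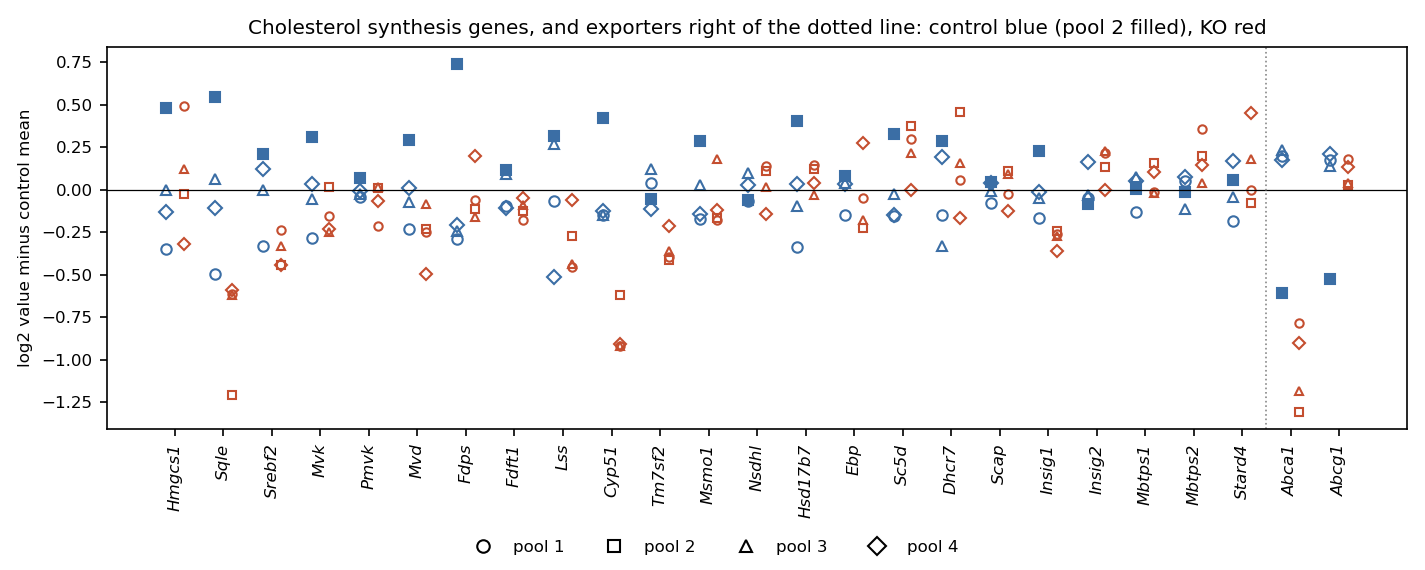
Log2 value minus the control mean (y axis) of 23 cholesterol synthesis genes and of the exporters Abca1 and Abcg1 (x axis); blue marks control pools, with pool 2 filled, and red marks KO pools. Control pool 2 is the highest control pool for 17 of the 23 and the lowest for both exporters, and all KO pools of Cyp51 and Sqle lie below the control pools.

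Abca1, which loads cellular cholesterol onto lipid-poor apolipoproteins, was the export gene that changed. For Abca1 the KO pools read 6.43, 5.91, 6.03 and 6.31, the control pools 7.41, 6.61, 7.45 and 7.39. Every KO pool was below every control pool, and control pool 2 was nearest to them. Abca1 was 2.06-fold lower in KO (-1.05, SE 0.19, limma, adjusted p = 0.0110), and -1.25 without control pool 2 (0.000939). The difference was as large without KO pools 1 and 2, at -1.04, but not called (0.0734), as when adjusted for mean T cell marker signal (-0.98, 0.114). Of the macrophage markers, Cd68 and Sirpa were called lower in KO as well (7.63 against 8.19 and 6.60 against 7.24), and 13 of 15 were not called. At an unadjusted p under 0.05 in limma were 5 of 15 (beside 15.3% of all genes), among them Adgre1 (-0.76) and, in the other direction, Marco (0.33). Of the 15 differences 9 were negative and 6 positive. Adjusted for the mean of these markers Abca1 differed by -0.97 and was called (0.0269). Their part in the Abca1 result was otherwise not tested.

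For Abcg1, which passes cholesterol to high-density lipoprotein, the KO pools read 6.07, 5.91, 5.93 and 6.02, the control pools 6.06, 5.36, 6.02 and 6.10. Apart from control pool 2 the values were alike, and the difference was 0.10 (SE 0.15). For Apoe, a carrier of cholesterol, the KO pools read 5.48, 5.67, 5.56 and 5.61, the control pools 5.83, 5.51, 5.68 and 5.48. The groups overlapped and differed by -0.04 (SE 0.10). Nr1h3, the gene of LXR alpha, was dim: the KO pools read 3.46, 3.12, 3.63 and 2.95, the control pools 3.27, 3.06, 3.65 and 3.34. These too overlapped, with a difference of -0.04 (SE 0.16). Of 22 other genes of sterol export and transport, 1 rose and 1 fell. Abca7, a relative of Abca1, was 4.65 ± 0.22 in KO and 5.12 ± 0.06 in control (-0.47, limma, adjusted p = 0.0417), and Rxra, the partner of LXR and PPAR receptors, was 4.35 ± 0.08 against 3.95 ± 0.17 (0.41, adjusted p = 0.04997; SD, n = 4 each). Leaving out any single pool except KO pool 2 ended the Abca7 call (0.0732 to 0.111), and any except control pool 3 ended that of Rxra (0.0647 to 0.137). Rxra was also not called without KO pools 1 and 2 (0.36, 0.260) or adjusted for mean T cell marker signal (0.37, 0.265), and Abca7 was not when adjusted for mean macrophage marker signal (-0.48, 0.0746).

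The PPAR receptors, which bind fatty acids and switch on genes of their uptake and oxidation, were not called (0 of 3 at an unadjusted p under 0.05). For Ppara, the KO pools read 2.82, 2.66, 2.90 and 2.95, the control pools 2.70, 2.53, 2.75 and 2.81. For Pparg, the KO pools read 2.72, 2.56, 2.65 and 2.96, the control pools 2.68, 2.67, 2.69 and 2.59. Both were dim in all pools and overlapped, with differences of 0.13 and 0.07. For Ppard, the KO pools read 5.37, 5.54, 5.55 and 5.34, the control pools 5.69, 5.46, 5.49 and 5.54. It overlapped as well, with a difference of -0.10, and the 3 intervals lay between -0.29 and 0.34.

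Among 21 other uptake genes 1 was called. For Slc27a3, a fatty acid transport protein and acyl-CoA synthetase, the KO pools read 3.53, 3.92, 3.89 and 3.62, the control pools 4.14, 5.01, 4.30 and 4.62. The groups were separate. It was 1.71-fold lower in KO (-0.78, SE 0.17, limma, adjusted p = 0.0340), opposite in sign to Cd36, and was no longer called on leaving out KO pool 1, 2 or 4 or control pool 2 or 4 (0.0562 to 0.0937). Nor was it called without KO pools 1 and 2 (-0.76, 0.168) or adjusted for mean T cell marker signal (-0.75, 0.188). Over all 127 other pathway genes measured, 1 rose and 3 fell, or 3.15%, beside 3.59% of all genes. That count of 4 became 1 when either of KO pools 1 and 4 or control pools 2 and 4 was dropped, and 2 when KO pool 2 was.

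Of the 33 listed genes that were not called, 29 differed by less than 0.25, and for 27 the 95% interval stayed within a 1.5-fold change either way. For Fabp4, Fabp5, Lpl, Hadhb, Sqle and Srebf2 it did not, so that a change of that size was not bounded in these 6. Nor do the narrow intervals of Dgat2, Mgll, Nr1h3, Ppara and Pparg bound a change in RNA. With Lpl they are the 6 listed genes below the array medians, and folds of such dim genes are understated.

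**Figure D5:**
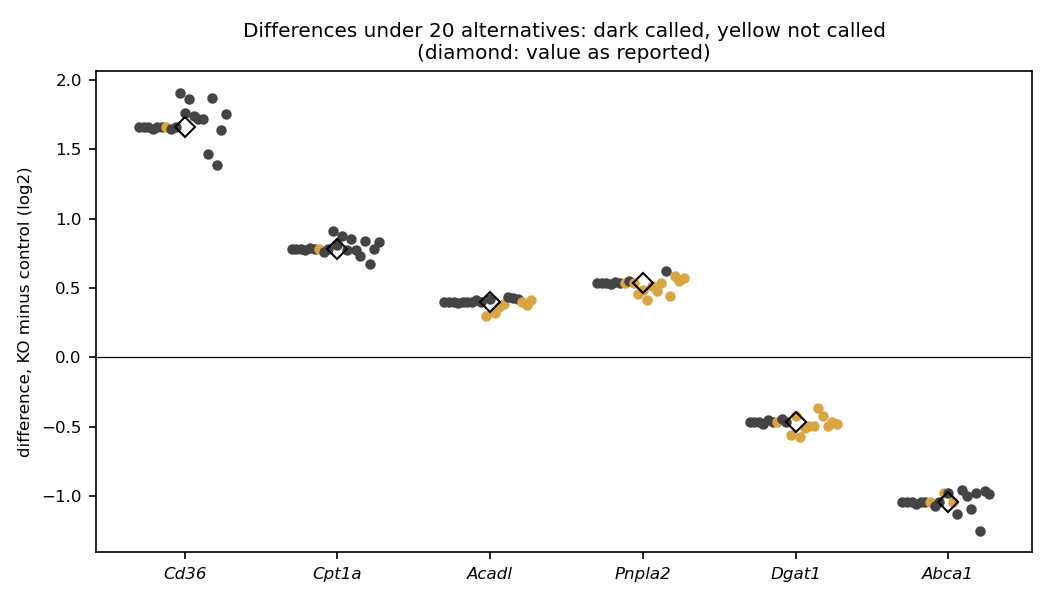
Difference between KO and control (log2, y axis) of each called gene (x axis) in 20 alternative fits (dots; dark called, yellow not called) and as reported (diamond). No difference crosses 0; Cd36 and Cpt1a were called in 19 of 20, Abca1 in 17, Acadl in 13 and Pnpla2 and Dgat1 in 8 each.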

How the data were processed

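The authors deposited a table of log2 values, 41345 probe sets by 8 arrays, made with RMA in R 3.2.2 per the submitters' processing notes. RMA corrects background, gives all arrays 1 distribution and summarises probes on the log2 scale. A difference is thus relative to the rest of the array, and folds of dim genes are understated. The sources used here do not give the package. Array medians lay between 3.68 and 3.74. Precision is limited by the number of arrays.

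Names came from the platform annotation, in which 23521 probe sets had 1 symbol, 1814 had several and 16010 were not listed. KO was compared with control with limma 3.58.1 in R 4.3.3 (lmFit, eBayes, two-sided, Benjamini-Hochberg over 22180 genes, adjusted p under 0.05). The fit was tested on simulated data. Members, lists and alternatives were chosen with earlier results of these data known. Called members, then up to 3 others per role with the largest difference, were described by pool; other pathway genes where called, at most 5 per list; Fabp4, Tm7sf2, Insig1 and the rest were named after their values were seen. Summed marker levels add linear values (2 to the power of the log2 value). Promoter windows came from a RefSeq table of assembly GRCm38.p6; entries were found for 31 of the 39 genes. The alternatives changed the probe set, filter, scaling, variance prior, array weights, covariates and pools.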

Additional observations from a re-analysis of the deposited data

Results flagged for a closer look

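In 8 of the 86 groups of 4 pools examined (39 listed and 4 other called genes, 2 groups each) the highest or lowest pool stood apart from the other 3, with a gap to them above Dixon's 95% critical value; chance gives about 1 in 20. KO pool 4 was apart in Cd36, at 8.02 with the others at 7.21 to 7.27, and in Dgat1, at 5.89 with the others at 6.27 to 6.33. KO pool 3 was low in Lipa, at 7.78. KO pool 2 was low in Sqle, at 4.50, and high in Cyp51, at 5.28. Control pool 2 was low in Abca1, at 6.61, and in Abcg1, at 5.36, and high in Cyp51, at 6.32. Without KO pool 4 the Cd36 difference was 1.47 and called (limma, adjusted p = 0.0221), and that of Dgat1 was -0.37 and not called (0.0612).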

How the results depend on the processing

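All 6 called genes kept their direction in the 20 alternatives run for each. The count of all called genes, 797, became 303 without moderation of the variance, 310 when adjusted for mean T cell marker signal and 320 on dropping KO pools 1 and 2, and ran from 479 to 758 with 1 pool left out. It was 498 without KO pool 2, 530, 497 and 479 without control pool 2, 3 or 4. The 6 called of the 39 became 1, 2 and 2 in those 3 fits and 3 to 6 with 1 pool left out. The 1 kept without moderation was Acadl, while Cd36, Cpt1a and Abca1 lost their calls there (adjusted p 0.113, 0.0678 and 0.118). Among other pathway genes the count of calls, 4, was 2 in each of those 3 fits, with 0, 2 and 2 of the 4 genes among them, and 1 to 3 with 1 pool left out. It was 9 among genes above the median in mean value and 7 with an intensity trend and robust prior. With the replicate number as a block it was 2, the 6 were 5 (Pnpla2 lost, adjusted p in limma = 0.0583) and the 797 were 666. Deviations of same-numbered pools correlated weakly, at 0.107, 0.0449, 0.0449 and 0.0363 across genes. KO pools 3 and 4 correlated best with another number. Pools 1 and 2 of KO correlated with pools 1 and 2 of control at 0.0337 to 0.107. For pools 3 and 4 this was 0.0363 to 0.104, and between these 2 sets -0.117 to -0.0134. Control pools 1 and 2 also had more summed T cell marker signal (577 and 562) than 3 and 4 (323 and 261). What these pools shared was not tested, and no fit left out pools 1 and 2 of both genotypes. Fits with fewer arrays or a covariate have less power by construction. Signs turned in genes near 0 that were not called. Adjusted for mean T cell marker signal Mgll was -0.045, Hmgcs1 -0.15, Nr1h3 0.068 and Fabp4 -0.65. Without KO pools 1 and 2 Hmgcs1 was -0.10 and Fabp4 -0.23, and adjusted for mean macrophage marker signal Apoe was 0.015. With 1 pool left out Hmgcs1 ran from -0.075 to 0.23, Abcg1 from -0.080 to 0.17, Apoe from -0.088 to 0.028, Nr1h3 from -0.15 to 0.075, Pparg from -0.011 to 0.12 and Fabp4 from -0.42 to 0.87. Over single genes and alternatives, 540 values kept direction and side of the threshold, 70 lost a call, 4 gained one and 19 changed sign; the cause was not tested. No scaling moved the median of all genes by over 0.1.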

Other observations

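Further lipid genes lay near the threshold without a call and are given as values, chosen after they were seen. Nceh1, which hydrolyses cholesteryl ester in lipid-loaded cells, was 6.61 ± 0.13 in KO and 6.13 ± 0.24 in control (0.49, limma, adjusted p = 0.0597; SD, n = 4 each). Acox3, a peroxisomal oxidase of branched fatty acids, was 7.32 ± 0.16 against 7.74 ± 0.15 (-0.42, 0.0617). Abca3, from the list of other export and transport genes, was 6.96 ± 0.04 against 7.25 ± 0.07 (-0.29, 0.0659). Hsd17b4, a further enzyme of peroxisomal oxidation, was 7.96 ± 0.05 against 7.69 ± 0.07 (0.28, 0.0833). In each of these genes the KO pools did not overlap the control pools, as was so for 13 of the 127 other pathway genes (10.2%, beside 10.5% of all genes).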
